A study of Cannabis sativa with 12 samples.

Results

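Basic helix-loop-helix (bHLH) factors were followed in hypocotyls of hemp (Cannabis sativa, cv. Santhica 27) harvested 6, 9, 15 or 20 days after sowing (H6, H9, H15 and H20). The contigs were those of PIF3, PIL5, BEE3, KDR, IBH1, AIF3 and LHW, together with every contig whose description holds the letters bHLH or the words helix-loop-helix, which gave 26 of 3622 deposited contigs. The study set young hypocotyls that still elongate against older ones that thicken and form bast fibers. RNA-Seq was performed on 3 pools of 20 whole hypocotyls per time point, all from 1 experimental batch grown under a 16 h photoperiod at 25°C, with nights of 8 h at 20°C and no other treatment. Each contig carries the name of its closest match, usually an Arabidopsis gene, so that the roles given below are known from Arabidopsis unless stated otherwise. In whole hypocotyls, fewer cells of a type and less RNA per cell cannot be told apart.

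bHLH proteins bind DNA as dimers through a stretch of basic residues, and members without a working basic stretch (called HLH proteins here) pair with the others and keep them off the DNA. In the dark, phytochrome-interacting factors (PIFs) drive hypocotyl elongation, and light-activated phytochromes bring about their degradation. Downstream, a tug of war is known between HLH repressors such as IBH1, the HLH proteins of the PRE type that sequester them, and the DNA-binding activators of the ACE and BEE type. Another pair of bHLH factors, LHW and its TMO5-type partners, promotes the divisions that widen the vascular cylinder. By known role, the 26 contigs do not all belong to light and elongation: 3 match PIFs, 7 the subfamily of BEE and ACE factors, 3 the HLH proteins of the elongation switch and 2 the LHW system, while 11 match other bHLH genes. A further 6 contigs of bHLH or HLH genes lie outside the selection because their descriptions lack those words (PIF5, deposited as PIL6, PIF7, SPT, PAR1, LL2 and AT4G20970). They are described beside their relatives and are not counted among the 26.

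By an estimate from the deposited values, each library had 13413473 to 25855405 mapped reads, of which 31.1 to 36.8% lay in the deposited contigs. Levels are given as RPKM, read counts scaled by contig length and by the mapped reads of the library. This scaling allows for contig length, but how well levels compare between contigs, short ones above all, was not tested. Fold changes come from the read counts with edgeR's quasi-likelihood test, and a contig is called higher or lower at a Benjamini-Hochberg adjusted p under 0.05 over all 3622 contigs. The authors had deposited contigs that differ among the time points, so every call is made within that selection, and each share of the bHLH contigs is given beside the share of all deposited contigs. Errors are SD over 3 pools for levels and SE of the fit for log2 fold changes. Markers of several tissues moved over the same days. The 15 contigs of vessel wall genes (CESA4, CESA7, CESA8, LAC4, LAC17 and MYB46) summed to 3300 to 3430 RPKM in H20, against 267 to 468 RPKM in H6, and had reached 3490 to 3920 RPKM in H15, and 13 of the 15 were higher in H20 than in H6. The 6 contigs of the sieve element gene SEOR1 were all higher, with sums of 667 to 758 RPKM in H20 and 158 to 365 RPKM in H6. The 9 contigs of light harvesting and Rubisco activase genes summed to 4850 to 4880 RPKM in H20 and 9830 to 13400 RPKM in H6, and the 2 contigs of epidermal genes (KCS10 and ANL2) to 4.37 to 5.85 RPKM in H20 and 52.9 to 70.7 RPKM in H6, with every one of these contigs lower. Only some of the listed marker genes had a deposited contig: 6 of 9 for the vessel wall, 1 of 4 for phloem, 2 of 5 for the epidermis and 6 of 8 for green tissue. Every deposited contig has at least 11 reads in each library, so no marker could be at 0. The part of these tissues in the results was not tested.

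Between the youngest and the oldest hypocotyls the bHLH contigs split, with PIF3, PIL5, BEE3 and KDR on the falling side and IBH1, bHLH30 and bHLH94 on the rising side. In H20 against H6, 10 of 26 contigs were higher (38.5%, against 40.8% of all deposited contigs) and 12 were lower (46.2%, against 52.8%). Both directions together made up 84.6% of the bHLH contigs and 93.5% of all contigs, so the share that moved was not above the background. The median log2 fold change was -0.21 for the 26 contigs and -0.58 for all contigs, and the extremes were -5.26 and 2.65. Over 2-fold, 8 contigs were higher and 11 were lower (34.2% and 37.4% of all contigs, and 71.6% in either direction). With DESeq2's size factors this split turned to 10 higher and 8 lower, and those size factors moved the median of all contigs by 0.29. The contigs without a call were AIF3, bHLH16, LHW and a contig of bHLH68.

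**Figure D1:**
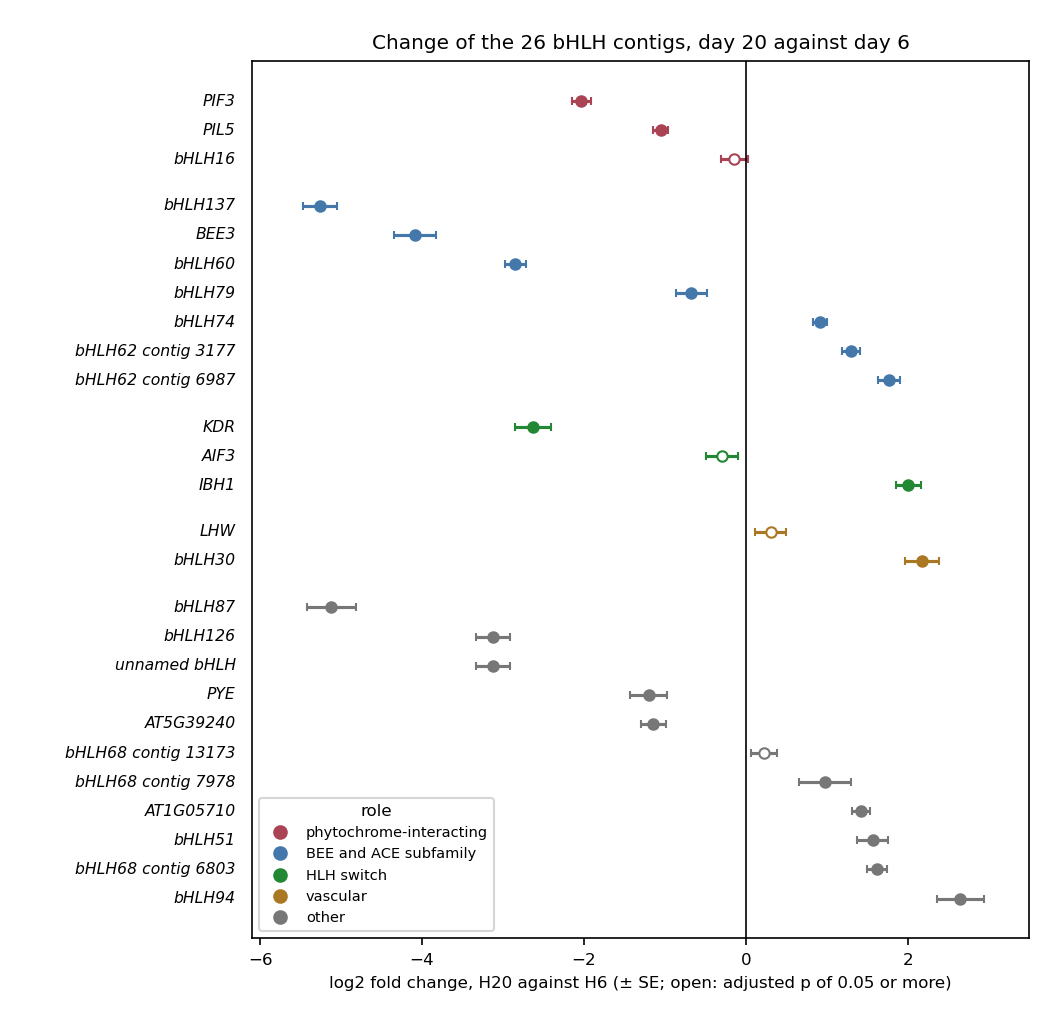
Log2 fold change of the 26 bHLH contigs in H20 against H6 (x axis, edgeR, bars are SE), grouped by known role. Filled points passed an adjusted p of 0.05 and open points did not. bHLH137 lies farthest to the left at -5.26 and bHLH94 farthest to the right at 2.65.

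PIF3 and PIL5 (the PIF1 gene) are the phytochrome-interacting factors of the selection, and both declined through the series. PIF3 was measured on a contig of 2621 bp. It had 41.9, 44.8 and 48.0 RPKM in H6, 31.3, 32.8 and 31.0 RPKM in H9, 14.6, 12.2 and 16.8 RPKM in H15, and 9.90, 10.4 and 10.5 RPKM in H20. Its libraries did not overlap between any neighbouring time points, with H6 highest and H20 lowest. PIF3 was 4.07-fold lower in H20 than in H6 (log2 fold change -2.03 ± 0.12, edgeR adjusted p = 6.07e-09). PIF3 fell at every step, with log2 fold changes of -0.52 in H9 against H6 (edgeR adjusted p = 0.00102), -0.99 in H15 against H9 (edgeR adjusted p = 5.30e-06) and -0.52 in H20 against H15 (edgeR adjusted p = 0.0029).

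PIL5 is a repressor of germination and greening in the dark. Its contig of 2400 bp had 36.9, 40.1 and 38.8 RPKM in H6, 29.2, 30.2 and 27.3 RPKM in H9, 20.5, 18.5 and 20.8 RPKM in H15, and 16.4, 17.2 and 18.6 RPKM in H20. The H6, H9 and H15 libraries stood apart from each other, and those of H15 and H20 overlapped. PIL5 was 2.07-fold lower in H20 than in H6 (log2 fold change -1.05 ± 0.09, edgeR adjusted p = 2.12e-07). The ratio of PIF3 to PIL5 within a library was 0.605, 0.605 and 0.566 in H20, against 1.13, 1.12 and 1.24 in H6. On the log2 scale this ratio differed by -0.97 between H20 and H6, and all 3 H20 libraries lay below all 3 H6 libraries (two-sided exact permutation test, p = 0.1, the smallest that 3 against 3 pools can give, and 0.1 after adjustment over 4 ratios).

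The third contig of this kind, bHLH16 (also known as UNE10 or PIF8), had another profile. It had 17.8, 16.1 and 13.0 RPKM in H6, 41.8, 35.2 and 42.0 RPKM in H9, 15.8, 13.0 and 20.4 RPKM in H15, and 12.8, 11.9 and 14.9 RPKM in H20. H9 stood alone above the other time points, which overlapped each other. bHLH16 was 2.52-fold higher in H9 than in H6 (log2 fold change 1.33 ± 0.17, edgeR adjusted p = 1.84e-05), and in H20 against H6 its log2 fold change of -0.14 ± 0.17 did not pass (edgeR adjusted p = 0.439) and was above 0 with DESeq2's size factors (0.16).

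Of the 2 PIF contigs outside the selection, PIF7, a shade-responsive PIF, also had its highest level in H9, at 83.0 ± 5.95 RPKM, and its lowest in H15, at 27.9 ± 2.35 RPKM (SD, n = 3 each). PIF7 was 1.63-fold higher in H9 than in H6, 2.70-fold lower in H15 than in H9 and 1.66-fold higher in H20 than in H15 (edgeR adjusted p = 0.00122, 4.08e-06 and 0.00266). PIL6, the PIF5 gene of the growth at the end of the night, had 20.1 ± 1.85 RPKM in H20 and 42.7 ± 2.46 RPKM in H6 (SD, n = 3 each), 1.98-fold lower in H20 (edgeR adjusted p = 1.94e-06). SPT, a relative of the PIFs that restrains organ growth, was 3.12-fold lower in H20 than in H6, at 6.47 ± 0.677 against 21.6 ± 2.69 RPKM (SD, n = 3 each). Of 11 listed light bHLH genes, 5 had a deposited contig (PIF3, PIL5, PIL6, PIF7 and SPT), of which 4 were lower in H20 than in H6, where 52.8% of all deposited contigs were. In H15 against H9 all 5 were lower, against 41.3% of all deposited contigs. bHLH16 carries no gene symbol or locus in the deposited annotation, so it was not counted in this list. It was not called in H20 against H6 (edgeR adjusted p = 0.439) and was lower in H15 against H9 (edgeR adjusted p = 4.94e-05).

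Genes of the pathway around the PIFs were counted from lists. Among 21 listed light signalling genes, 6 had a contig and all 6 were lower in H20 than in H6 (52.8% of all deposited contigs were), with a median log2 fold change of -1.15, where the median of all contigs was -0.58. The calls of HY5 and COP1 were lost with DESeq2's size factors (log2 fold changes -0.27 and 0.05, adjusted p = 0.178 and 0.648), which left 4 of 6 lower. The homeobox gene ATHB-2, a shade marker and direct PIF target, had 27.3 ± 4.91 RPKM in H20 and 133 ± 3.88 RPKM in H6 (SD, n = 3 each), and its relative HAT14 had 8.91 ± 0.25 and 28.7 ± 8.9 RPKM. SPA1, which acts with COP1 to degrade light-signalling factors, had 12.8 ± 0.957 RPKM in H20 and 34.7 ± 0.681 RPKM in H6. Of 8 listed greening genes, 3 had a contig and these 3 were lower in H20 than in H6, as were 52.8% of all deposited contigs. Their median log2 fold change was -1.31, beside -0.58 for all. GLK1, an activator of chloroplast genes, had 2.30 ± 0.414 against 25.9 ± 2.58 RPKM, PORA had 37.8 ± 4.16 against 100 ± 16.7 RPKM, and GUN5, a subunit of magnesium chelatase, had 124 ± 8.37 against 222 ± 12.7 RPKM.

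Clock genes, which set the daily rhythm of several PIFs, also differed between the time points. LHY, a gene of the morning, had 111 ± 10.2 RPKM in H6, 404 ± 24.9 RPKM in H9, 154 ± 0.94 RPKM in H15, and 256 ± 12.3 RPKM in H20 (SD, n = 3 each). TOC1, a gene of the evening, had 18.8 ± 1.75, 9.18 ± 0.844, 31.6 ± 3.18 and 7.63 ± 0.0551 RPKM over the same series, and FKF1 was highest in H15, at 20.7 ± 5.48 RPKM, and had 2.05 ± 0.0985 RPKM in H20 against 4.96 ± 2.82 RPKM in H6. Of 16 listed clock genes, 6 had a contig, and in H20 against H6, 1 was higher and 5 were lower, beside 40.8% and 52.8% of all deposited contigs. The 4 time points thus differed in clock gene levels as well as in age, and the part of the clock in the PIF results was not tested.

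BEE3, a brassinosteroid-induced growth promoter, heads a group of 7 contigs of the BEE and ACE subfamily. BEE3 had 60.8, 48.5 and 66.4 RPKM in H6, 29.1, 30.4 and 28.1 RPKM in H9, 11.7, 10.8 and 7.27 RPKM in H15, and 2.87, 4.59 and 2.23 RPKM in H20. No 2 neighbouring time points overlapped, and each was below the one before. BEE3 was 17.1-fold lower in H20 than in H6 (log2 fold change -4.09 ± 0.26, edgeR adjusted p = 1.31e-08). It was still falling at the last step, 3.15-fold lower in H20 than in H15 (edgeR adjusted p = 2.17e-04).

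bHLH137, a close relative in the same subfamily, showed the largest fall of the 26 contigs. It had 59.6, 51.8 and 52.7 RPKM in H6, 16.4, 17.1 and 13.1 RPKM in H9, 1.59, 1.97 and 1.51 RPKM in H15, and 1.27, 0.94 and 1.74 RPKM in H20. Its lowest libraries were those of H15 and H20, which overlapped, and H6 and H9 were apart. bHLH137 was 38.3-fold lower in H20 than in H6 (log2 fold change -5.26 ± 0.21, edgeR adjusted p = 6.52e-10), and the smallest count behind these values was 24 reads.

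bHLH60 also fell, with its lowest level in H15. It had 53.7, 47.1 and 51.9 RPKM in H6, 30.7, 27.6 and 25.5 RPKM in H9, 4.85, 4.60 and 6.06 RPKM in H15, and 6.63, 6.28 and 6.8 RPKM in H20. Its H20 libraries were all below those of H6 and slightly above those of H15. bHLH60 was 7.22-fold lower in H20 than in H6 (edgeR adjusted p = 1.28e-09), while the difference of H20 from H15 (log2 fold change 0.32) had an edgeR adjusted p of 0.0628 over all libraries and of 0.0186 without replicate 3 of H15. bHLH79 was highest in H9, at 22.8 ± 2.08 RPKM, and had 9.34 ± 0.956 RPKM in H20 against 16.0 ± 3.82 RPKM in H6 (SD, n = 3 each). Its log2 fold change of -0.67 had an edgeR adjusted p of 0.00388 and a DESeq2 adjusted p of 0.0563.

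The other 3 contigs of the subfamily went up. bHLH74, described in the deposited annotation as an activator for cell elongation, had 24.7, 25.7 and 25.8 RPKM in H6, 53.1, 48.9 and 48.1 RPKM in H9, 59.8, 57.5 and 57.5 RPKM in H15, and 43.3, 47.6 and 44.3 RPKM in H20. H6 was the lowest and H15 the highest time point, and neither overlapped the others. bHLH74 was 1.90-fold higher in H20 than in H6 (log2 fold change 0.92 ± 0.09, edgeR adjusted p = 3.96e-07) and fell by 0.40 on the log2 scale in H20 against H15 (edgeR adjusted p = 0.00284).

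Both contigs that match bHLH62 followed the same order of time points, lowest in H6 and highest in H15. The contig of 1214 bp had 111 ± 9.20 RPKM in H20 and 48.4 ± 2.01 RPKM in H6, and that of 526 bp had 46.6 ± 0.175 RPKM in H20 and 14.6 ± 1.83 RPKM in H6 (SD, n = 3 each). They were 2.45-fold and 3.42-fold higher in H20 than in H6. Whether both belong to 1 gene was not tested. Within the subfamily of 7 contigs, 3 were higher (40.8% of all deposited contigs were) and 4 lower (52.8% of all), with log2 fold changes of -5.26 to 1.77.

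Brassinosteroid genes with a contig were lower in the oldest hypocotyls. Of 18 listed, 4 had a contig and all 4 were lower in H20 than in H6 (52.8% of all deposited contigs were). The biosynthetic gene CPD had 14.0 ± 1.45 RPKM in H20 and 47.5 ± 2.83 RPKM in H6, BAK1, a co-receptor, had 10.6 ± 0.247 and 25.5 ± 1.37 RPKM, and the receptor BRI1 had 13.1 ± 0.279 and 29.5 ± 3.17 RPKM (SD, n = 3 each). Their median log2 fold change was -1.12, beside -0.58 for all contigs. Among 19 gibberellin genes, 4 had a contig and 3 were lower in H20 than in H6, beside 52.8% of all deposited contigs (2 of 4 with DESeq2's size factors, where GID1C had an adjusted p of 0.24). GASA4, a gibberellin-induced gene, led them with 37.7 ± 6.82 against 146 ± 38.1 RPKM, followed by the biosynthetic gene GA20OX2 with 8.25 ± 2.37 against 19.1 ± 0.923 RPKM and the receptor GID1C with 21.1 ± 0.986 against 30.7 ± 2.19 RPKM.

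**Figure D2:**
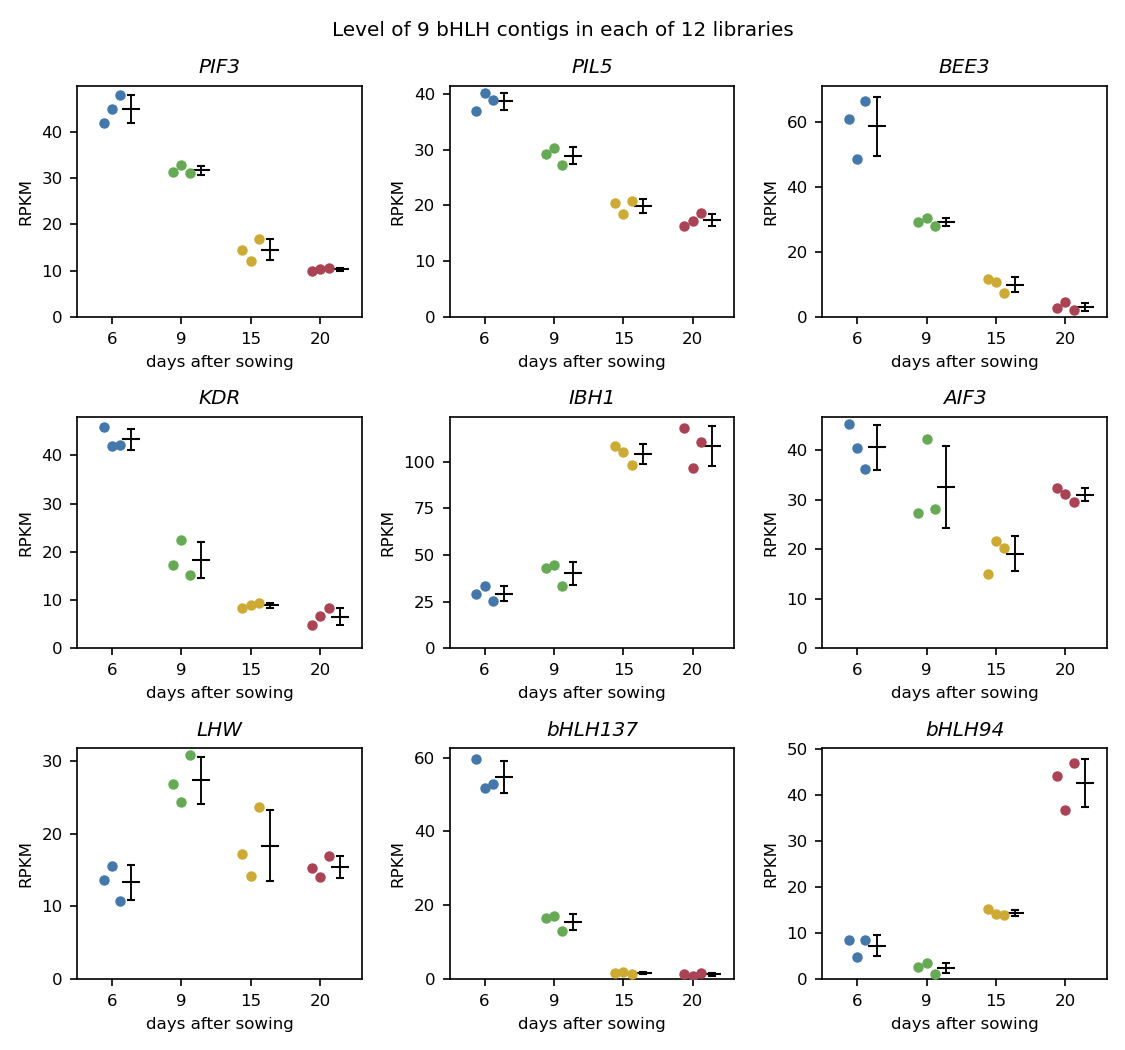
Level of 9 bHLH contigs (y axis, RPKM) in the 3 libraries of each time point (x axis, days after sowing). Points are libraries, and the black bar beside them is the mean with its SD. PIF3, PIL5, BEE3, KDR and bHLH137 step down with age, IBH1 steps up between day 9 and day 15, LHW is highest on day 9, and bHLH94 is highest on day 20.

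Of the 3 HLH contigs of the elongation switch, KDR was lower in H20 than in H6, IBH1 was higher, and AIF3 was not called. KDR (KIDARI), an HLH protein of the PRE type that promotes elongation by binding repressors, was measured on a contig of 328 bp with 35 to 229 reads. It had 45.9, 41.9 and 42.3 RPKM in H6, 17.2, 22.4 and 15.2 RPKM in H9, 8.33, 8.84 and 9.41 RPKM in H15, and 4.72, 6.63 and 8.31 RPKM in H20. The time points did not overlap, although H15 and H20 came as close as 8.33 and 8.31 RPKM, and the widest gap was between H6 and H9. KDR was 6.19-fold lower in H20 than in H6 (log2 fold change -2.63 ± 0.22, edgeR adjusted p = 1.29e-07). Against H6, H9 was already 2.40-fold lower (edgeR adjusted p = 1.04e-04), and the last step, H20 against H15, did not pass over all libraries (log2 fold change -0.47, edgeR adjusted p = 0.112) but passed without replicate 3 of H20 (log2 fold change -0.68, edgeR adjusted p = 0.0485).

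IBH1, the HLH repressor that blocks activators of cell elongation, moved the other way. Its contig of 360 bp held 138 to 973 reads. IBH1 had 29.0, 33.2 and 25.4 RPKM in H6, 42.8, 44.8 and 33.2 RPKM in H9, 109, 106 and 98.1 RPKM in H15, and 118, 97.0 and 111 RPKM in H20. The libraries formed a low pair of time points, H6 and H9, which overlap by a single library, and a high pair, H15 and H20, which overlap. IBH1 was 4.02-fold higher in H20 than in H6 (log2 fold change 2.01 ± 0.15, edgeR adjusted p = 5.32e-08), and 2.91-fold higher in H15 than in H9 (edgeR adjusted p = 1.27e-06). The smaller difference of H9 from H6 (log2 fold change 0.43, edgeR adjusted p = 0.0198) no longer passed without replicate 3 of H6 (0.075), replicate 1 of H9 (0.0581) or replicate 2 of H9 (0.0704).

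AIF3, described in the file as bHLH147 and known as a further HLH repressor of elongation, dipped and came back. Its contig of 340 bp had 45.2, 40.4 and 36.1 RPKM in H6, 27.4, 42.1 and 28.1 RPKM in H9, 15.0, 21.7 and 20.3 RPKM in H15, and 32.2, 31.1 and 29.6 RPKM in H20. H15 was the lowest time point and overlapped no other, whereas H9 reached into both H6 and H20. AIF3 was 1.59-fold higher in H20 than in H15 (log2 fold change 0.67 ± 0.20, edgeR adjusted p = 0.0195), a call that did not pass without replicate 1 of H15 (0.0841) or replicate 1 of H20 (0.0596). The fall in H15 against H9 (log2 fold change -0.62, edgeR adjusted p = 0.0133) did not pass without replicate 2 of H9 (0.0799) or replicate 1 of H15 (0.0616), and the value of H9 against H6 (-0.33, edgeR adjusted p = 0.148) passed without replicate 2 of H9 (-0.55, 0.0261). In H20 against H6 the log2 fold change of AIF3 was -0.29 ± 0.20 (edgeR adjusted p = 0.184), and with DESeq2's size factors it was 0.01.

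KDR was set against the repressors IBH1 and AIF3 as a ratio of levels within each library, which does not depend on the scaling of libraries. These ratios are of single contigs and do not measure the balance of all promoters and repressors. The ratio of KDR to IBH1 was 1.58, 1.26 and 1.66 in H6 and 0.402, 0.5 and 0.457 in H9. It was 0.0767, 0.0837 and 0.0959 in H15 and 0.0399, 0.0684 and 0.0750 in H20. By RPKM, KDR thus exceeded IBH1 in all 3 H6 libraries and was below it in the other 9 libraries, with both contigs short (328 and 360 bp). The log2 ratio differed by -4.66 between H20 and H6 (two-sided exact permutation test, p = 0.1, the smallest possible). The ratio of KDR to AIF3 was 0.146, 0.213 and 0.281 in H20, against 1.02, 1.04 and 1.17 in H6, a difference of -2.38 on the log2 scale with the same smallest p of 0.1 in the exact permutation test.

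**Figure D3:**
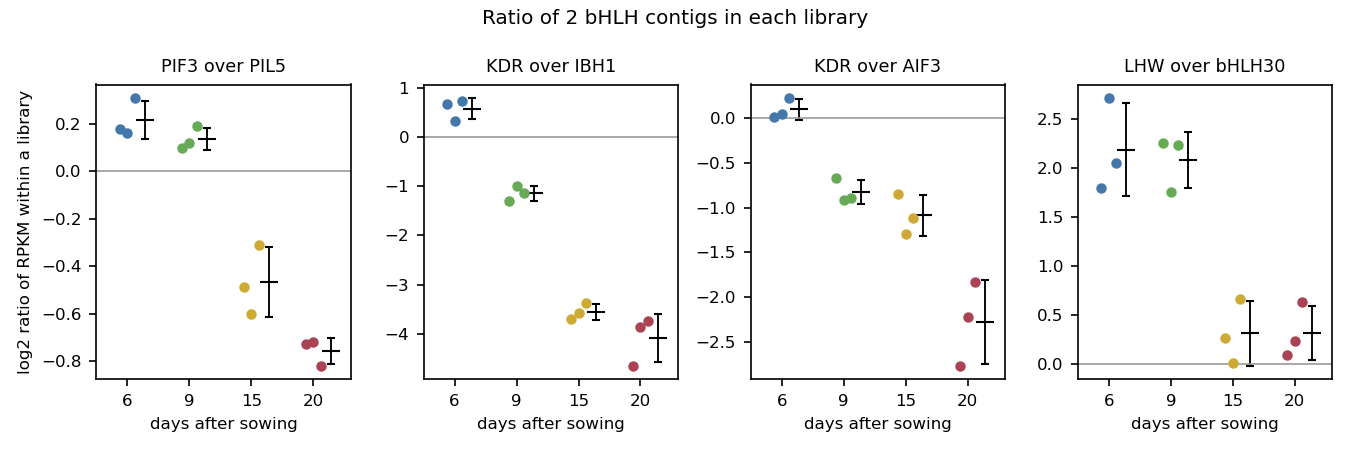
Log2 ratio of the RPKM of 2 bHLH contigs (y axis) in each library, by days after sowing (x axis). Points are libraries, and the black bar is the mean with its SD. KDR over IBH1 is above 0 on day 6 and below 0 on the later days, and LHW over bHLH30 drops between day 9 and day 15.

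PAR1, an HLH inhibitor of PIFs outside the selection, had 17.8 ± 5.6 RPKM in H6, 13.8 ± 2.43 RPKM in H9, 21.0 ± 3.72 RPKM in H15, and 5.5 ± 0.942 RPKM in H20 (SD, n = 3 each). Its H20 libraries were below all others, and it was 3.91-fold lower in H20 than in H15 (edgeR adjusted p = 6.70e-05). Of 18 listed genes of the elongation switch, 5 had a deposited contig (BEE3, KDR, IBH1, AIF3 and PAR1), 1 of which was higher and 3 of which were lower in H20 than in H6, beside 40.8% and 52.8% of all deposited contigs. The elongation activator bHLH74 was not counted among these, and it was higher in H20 than in H6 (log2 fold change 0.92).

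Wall-loosening genes, which act in cell expansion, were counted beside the switch. Of 14 listed expansin and xyloglucan endotransglucosylase genes, 7 had a contig, and 3 were higher and 3 lower in H20 than in H6, beside 40.8% and 52.8% of all deposited contigs. The expansin genes EXPA8 and EXPA5 had 2.37 ± 0.705 and 14.5 ± 1.78 RPKM in H20, against 155 ± 33.2 and 144 ± 12.2 RPKM in H6, and XTH22 had 60.4 ± 8.81 RPKM in H20 against 2.28 ± 1.38 RPKM in H6 (SD, n = 3 each). In H9, EXPA5 was at 148 ± 9.79 RPKM and EXPA8 at 58.7 ± 8.12 RPKM. Of 14 auxin growth genes 2 had a contig: ARF19 had 29.0 ± 1.51 RPKM in H20 and 51.3 ± 3.80 RPKM in H6 and was lower (edgeR adjusted p = 3.24e-05), and SAUR51 did not pass (edgeR adjusted p = 0.0964, and 0.0448 without TMM factors).

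LHW, the bHLH factor whose loss leaves Arabidopsis roots with a thin vascular cylinder, was highest in H9. It had 13.6, 15.6 and 10.8 RPKM in H6, 26.9, 24.5 and 30.8 RPKM in H9, 17.2, 14.2 and 23.8 RPKM in H15, and 15.3, 14.0 and 17.0 RPKM in H20. All H9 libraries lay above all others, and the other time points overlapped. LHW was 2.04-fold higher in H9 than in H6 (log2 fold change 1.03 ± 0.19, edgeR adjusted p = 3.72e-04). Its fall in H15 against H9 was at the threshold (log2 fold change -0.44, edgeR adjusted p = 0.0473) and did not pass without replicate 1 of H6 (0.0545), replicate 1 or 3 of H9 (0.0704 and 0.18), replicate 1 or 2 of H15 (0.132 and 0.183) or replicate 1, 2 or 3 of H20 (0.0593, 0.0545 and 0.0561). In H20 against H6 the log2 fold change of LHW was 0.31 ± 0.19 (edgeR adjusted p = 0.136), and it passed with DESeq2's size factors (0.61, adjusted p = 0.00256).

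bHLH30, also called T5L1, belongs to the TMO5-type partners of LHW. It had 3.90, 2.36 and 2.61 RPKM in H6, 5.60, 7.24 and 6.52 RPKM in H9, 14.3, 14.1 and 14.9 RPKM in H15, and 14.4, 11.9 and 10.95 RPKM in H20. H6, H9 and the later pair of time points were apart from each other, and H15 and H20 overlapped. bHLH30 was 4.52-fold higher in H20 than in H6 (log2 fold change 2.18 ± 0.21, edgeR adjusted p = 3.82e-07). The ratio of LHW to bHLH30 was 1.07, 1.18 and 1.55 in H20, against 3.49, 6.61 and 4.15 in H6, which is a difference of -1.87 on the log2 scale (two-sided exact permutation test, p = 0.1, the smallest possible).

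LL2, an LHW-like gene outside the selection, also had its highest mean RPKM in H9. In H15 against H9 it was not called (log2 fold change -0.04, edgeR adjusted p = 0.696). LL2 had 38.5 ± 3.96 RPKM in H6, 78.7 ± 0.969 RPKM in H9, 69.4 ± 1.69 RPKM in H15, and 61.9 ± 3.79 RPKM in H20 (SD, n = 3 each), and it was 1.72-fold higher in H20 than in H6 (edgeR adjusted p = 4.44e-06). Of 10 listed genes that act up- or downstream of LHW, 1 had a contig, that of ARF5 (MONOPTEROS), the auxin response factor that activates TMO5 genes. ARF5 had 15.2 ± 0.683 RPKM in H20 and 2.34 ± 0.505 RPKM in H6 (SD, n = 3 each), and its log2 fold change was 2.80 (edgeR adjusted p = 8.91e-09). The cambium markers PXY and WOX4 summed to 136 to 160 RPKM in H20 and 56.3 to 77.3 RPKM in H6, and their part in the rise of bHLH30 was not tested.

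Among the other 11 contigs, bHLH94, a relative of the stomatal bHLH factors by sequence, showed the largest rise. It had 8.54, 4.74 and 8.60 RPKM in H6, 2.67, 3.44 and 1.13 RPKM in H9, 15.2, 14.1 and 13.9 RPKM in H15, and 44.3, 36.9 and 47.0 RPKM in H20. Its time points did not overlap, and the order was H9, H6, H15, H20 from the lowest to the highest. bHLH94 was 6.27-fold higher in H20 than in H6 (log2 fold change 2.65 ± 0.29, edgeR adjusted p = 1.72e-06) and 2.92-fold higher in H20 than in H15 (edgeR adjusted p = 7.87e-04), but it was 3.06-fold lower in H9 than in H6 (edgeR adjusted p = 5.15e-04). The lowest count behind it was 22 reads.

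bHLH87, which is related to the HECATE factors, nearly matched the fall of bHLH137. It had 10.4, 12.4 and 19.3 RPKM in H6, 4.33, 6.54 and 5.16 RPKM in H9, 1.08, 1.01 and 0.89 RPKM in H15, and 0.32, 0.44 and 0.37 RPKM in H20. Every time point lay below the one before without overlap. bHLH87 was 34.9-fold lower in H20 than in H6 (log2 fold change -5.12 ± 0.30, edgeR adjusted p = 6.49e-09), with 14 reads in the library of its smallest count.

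bHLH126 and a contig of 1871 bp that is described only as a bHLH protein fell to the same extent. bHLH126 had 2.87 ± 0.208 RPKM in H20 and 26.8 ± 6.50 RPKM in H6, and the contig without a gene name had 1.43 ± 0.163 RPKM in H20 and 13.4 ± 3.15 RPKM in H6 (SD, n = 3 each). Each was 8.72-fold lower in H20. PYE, a regulator of the iron deficiency response, had 7.43 ± 0.0666 RPKM in H20 and 18.3 ± 4.14 RPKM in H6 (SD, n = 3 each), and was 2.29-fold lower (edgeR adjusted p = 2.05e-04). AT5G39240 had 11.9 ± 0.61 RPKM in H20 and 28.2 ± 0.566 RPKM in H6 and was 2.21-fold lower.

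The 3 contigs that match bHLH68 did not share a profile. The contig of 1414 bp had 77.5 ± 4.59 RPKM in H20 and 27.0 ± 4.14 RPKM in H6 and was 3.07-fold higher (edgeR adjusted p = 3.22e-08). That of 1786 bp was highest in H9, at 18.6 ± 1.18 RPKM, and had 8.07 ± 1.34 RPKM in H20 and 7.40 ± 0.993 RPKM in H6 (SD, n = 3 each), with a log2 fold change of 0.23 in edgeR (adjusted p = 0.197) and 0.52 with DESeq2's size factors (adjusted p = 0.00471). That of 322 bp had 33.1, 30.2 and 26.02 RPKM in H20, against 26.9, 14.0 and 8.08 RPKM in H6. Its libraries overlapped between H20 and H6, although the log2 fold change of 0.98 ± 0.32 passed the test (edgeR adjusted p = 0.0107). It was 1.54 without replicate 1 of H6 and 0.65 without replicate 3 of H6. The study lists the shortest of these contigs with the values deposited for another, and the values given here are those deposited under each contig. These contigs may be separate genes or stretches of the same gene, which the files do not tell.

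AT4G20970, a bHLH gene outside the selection, had 9.45 ± 0.906 RPKM in H20 and 22.4 ± 11.3 RPKM in H6 (SD, n = 3 each). Its log2 fold change was -1.13 (edgeR adjusted p = 0.00663), and -0.70 without replicate 1 of H6. AT1G05710 and bHLH51 were the other contigs that were higher in H20 than in H6. AT1G05710 had 86.0 ± 0.645 RPKM in H20 and 34.5 ± 3.33 RPKM in H6 and was 2.67-fold higher, and bHLH51 had 10.9 ± 2.51 RPKM in H20 and 3.92 ± 0.327 RPKM in H6 and was 2.97-fold higher (SD, n = 3 each). bHLH51 was highest in H15, at 20.1 ± 2.08 RPKM, and fell by 0.91 on the log2 scale in H20 against H15 (edgeR adjusted p = 0.00111).

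By step, more bHLH contigs passed the test up to day 15 than after it, and the same held for all deposited contigs. In H9 against H6, 12 of 26 contigs were higher (37.9% of all deposited contigs were) and 12 were lower (36.8% of all), so that 92.3% of the bHLH contigs and 74.7% of all contigs moved. In H15 against H9 all 26 passed, 10 higher (38.3% of all contigs) and 16 lower (41.3% of all), beside 79.6% of all contigs in either direction. Leaving out 1 library at a time gave 21 to 24 calls in H9 against H6 and 23 to 26 in H15 against H9. In H20 against H15, 2 were higher (AIF3 and bHLH94, against 17.0% of all contigs) and 6 were lower (PIF3, BEE3, bHLH74, bHLH87, bHLH51 and the bHLH68 contig of 1786 bp, against 24.4% of all). The higher count was 1 without replicate 1 of H15 or replicate 1 of H20, where AIF3 did not pass (edgeR adjusted p = 0.0841 and 0.0596). bHLH87 did not pass at this step in limma on log2(RPKM + 1) (adjusted p = 0.0794). Together 30.8% of the bHLH contigs moved at this last step and 41.4% of all contigs did. In these steps, 12, 12 and 3 contigs passed with a change over 2-fold. Those were 5 higher and 7 lower in H9 against H6 (17.9% and 18.2% of all contigs, 36.0% in either direction), 6 higher and 6 lower in H15 against H9 (22.7% and 20.8%, 43.5%), and 1 higher and 2 lower in H20 against H15 (5.25% and 8.31%, 13.6%). The split over 2-fold turned to 8 higher and 6 lower in H9 against H6 with DESeq2 and to 4 higher and 9 lower in H15 against H9 without TMM factors. The joint edgeR test of the 4 time points passed for each of the 26 contigs, as it did for 100% of the deposited ones, which had been kept for that reason.

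Sorted by the order of their mean RPKM alone, 8 of the 26 contigs were lower at every step than at the step before (30.8%, against 16.2% of all contigs): PIF3, PIL5, BEE3, KDR, bHLH137, bHLH87, bHLH126 and the contig without a gene name. Of these 8, only PIF3, BEE3 and bHLH87 passed the edgeR test at every step. IBH1, AT1G05710 and the bHLH68 contig of 1414 bp were higher at every step (11.5%, against 13.4% of all contigs), and 15 turned (57.7%, against 70.4% of all contigs). Of the contigs selected by name, PIF3, PIL5, BEE3 and KDR were in the falling group, and IBH1, AIF3 and LHW were not. The 6 bHLH contigs outside the selection all turned. None of the rising contigs was called in H20 against H15, where AT1G05710 had a log2 fold change of -0.02 (edgeR adjusted p = 0.906). H6 held the highest mean of 12 contigs (46.2%, against 40.6% of all contigs), H9 that of 4 (15.4%, against 19.6%), H15 that of 5 (19.2%, against 19.8%) and H20 that of 5 (19.2%, against 20.0%). Of the 6 bHLH contigs outside the selection, H6 held the highest mean of 1, H9 that of 4 and H15 that of 1. Within the selection, the span of the means also varied. The highest mean was 41.5 times the lowest for bHLH137, 18.1 times for BEE3 and 17.7 times for bHLH94, but 2.05 times for LHW and 2.13 times for AIF3.

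**Figure D4:**
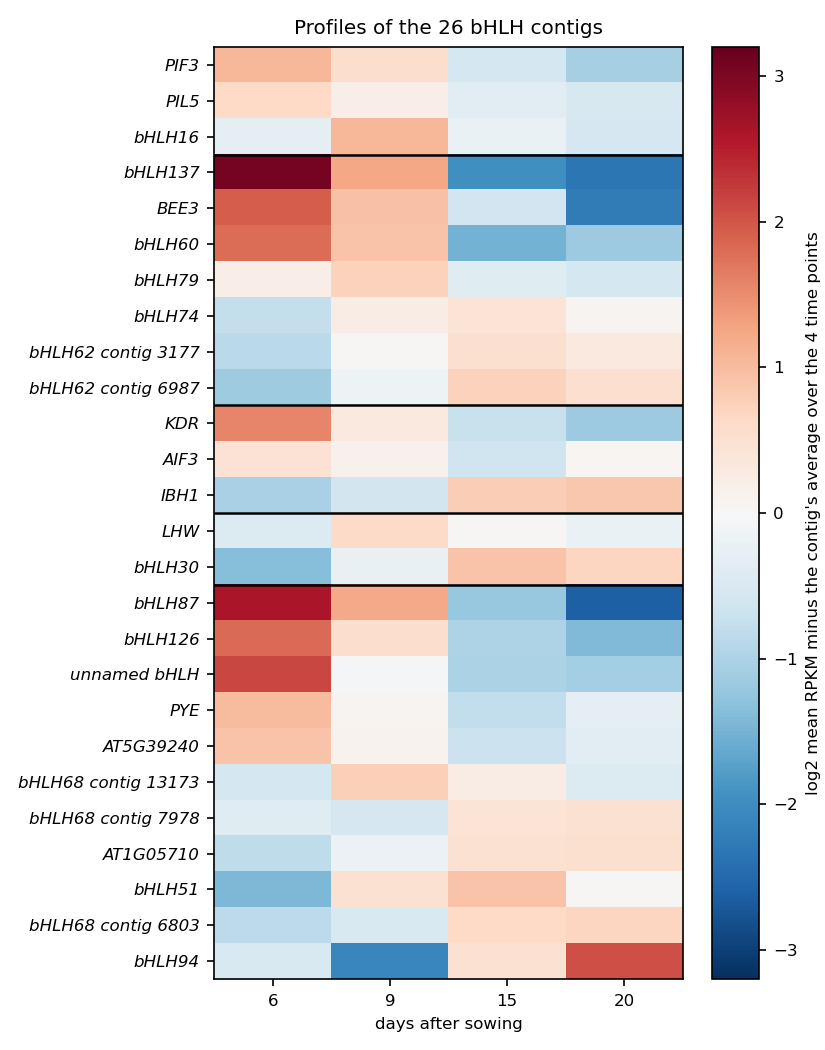
Mean level of the 26 bHLH contigs at each time point (x axis, days after sowing), as log2 mean RPKM minus the average of the contig over the 4 time points (colour). Lines separate the groups of known role, in the same order as in the plot of log2 fold changes. Red blocks on days 6 and 9 mark contigs such as BEE3 and KDR, and red blocks on days 15 and 20 mark contigs such as IBH1 and bHLH30.

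To describe which other genes ran alongside, each of 2618 contigs with a gene name or locus was compared with PIF3, KDR, IBH1 and LHW by the root mean square difference of centred log2(RPKM + 1) over the 12 libraries, where 0 is the same profile. The nearest to PIF3 were AT5G18650 (an E3 ligase that interacts with MYB30, difference 0.136), AT2G26850 (an F-box protein, 0.159) and AT1G76880 (a homeodomain-like protein, 0.162), whereas the median contig lay at 0.938. Those nearest to KDR were BGAL2 (a beta-galactosidase, 0.213), AT4G35160 (an O-methyltransferase, 0.236) and AT3G21670 (a nitrate transporter, 0.24), with a median of 1.04. Those nearest to IBH1 were AT1G21070 (a nucleotide-sugar transporter-like protein, 0.140), AT3G15480 (0.151) and BGAL3 (0.151), with a median of 1.17. LHW was nearest to AT1G06840 (a leucine-rich repeat receptor-like kinase, 0.171), AT3G14470 (an NB-ARC protein, 0.171) and AT1G64050 (0.174), with a median of 0.802. Within the selection, PIF3 lay closest to KDR (0.337) and IBH1 closest to the bHLH68 contig of 1414 bp (0.212). All of these distances rest on the same 12 libraries.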

How the data were processed

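The authors trimmed and mapped stranded paired-end reads to their own de novo assembly with CLC Genomics Workbench 8.0.3, and annotated contigs with Blast2GO PRO 3.0. The deposited counts are the authors' reads per contig and library, and the deposited RPKM values are the authors' scaling of these counts by contig length and mapped reads. Library totals used here are those that counts and RPKM imply. The deposited p-value column of the authors' ANOVA across time points, on which, with limits of 2-fold and 10 RPKM, contigs were chosen, was not used, nor were their mean columns. The quasi-likelihood test of edgeR 4.0.16 (R 4.3.3) was run on the counts of all 12 libraries in 1 model, with TMM factors and 8 residual degrees of freedom. P-values were adjusted over 3622 contigs for each of 4 comparisons. The filter on low counts removed 0 contigs. Ratios were tested with scipy 1.17.1, and alternatives used limma 3.58.1 and DESeq2 1.42.0. On simulated data for H20 against H6, 100 of 100 contigs with a log2 change of 1.5 were called, and 16 of 3422 unchanged ones. The simulation changed few contigs, in H20 alone and evenly in both directions, with the same spread for all contigs. It did not cover the setting of the deposited contigs, of which 93.5% were called in H20 against H6.

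The bHLH contigs and the gene lists were chosen with earlier results of these data known. Genes named are all bHLH contigs, those with the largest changes of each list (up to 3, or all with a contig) and the 3 with the profile nearest to PIF3, KDR, IBH1 and LHW. A few others, such as SAUR51, were named after their values were seen. Lists were matched by locus or symbol, and after matching, 2 symbols that also name unrelated genes were dropped. No sequence of a contig was used here.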

Additional observations from a re-analysis of the deposited data

How the results depend on the processing

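The counts of bHLH contigs called higher or lower stayed within 1.5 times under every alternative run. In H20 against H6, 22 contigs were called in the edgeR fit, and 22 to 24 under the alternatives. With each of the 12 libraries left out in turn, the counts were 22 in H20 against H6, 21 to 24 in H9 against H6, 23 to 26 in H15 against H9 and 7 to 10 in H20 against H15. The 4 log2 ratios kept their sign. Over 2-fold, 10 higher and 8 lower were also found in H20 against H6 with TMM on sums of the deposited contigs.

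Reversals of sign concerned log2 fold changes that were not called in the edgeR fit of all libraries. With DESeq2's size factors AIF3 was at 0.01 and bHLH16 at 0.16 in H20 against H6, and the bHLH68 contig of 322 bp at 0.06 in H9 against H6. bHLH16 was at 0.09 with TMM on sums of the deposited contigs and at 0.10 with only the 2 time points compared. AT1G05710 in H20 against H15 was at 0.01 without TMM factors and with both limma fits, at 0.03 with DESeq2, at 0.08 with TMM on sums and at 0.04 with only the 2 time points. LL2 in H15 against H9 was at 0.11 with TMM on sums. PIF7 in H20 against H6 was at -0.09 without TMM factors and at -0.08 with both limma fits. With 1 library left out at a time, some of these log2 fold changes spanned 0. In H20 against H15 they ran over -0.21 to 0.01 for the contig without a gene name, -0.07 to 0.12 for the bHLH68 contig of 322 bp, -0.03 to 0.01 for AT1G05710 and -0.04 to 0.12 for IBH1. They ran over -0.50 to 0.39 for the bHLH68 contig of 322 bp in H9 against H6, and over -0.15 to 0.17 for PIF7 in H20 against H6. The cause was not tested.

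The replicate numbers did not pair the libraries, since deviations of libraries with the same number correlated by -0.261 to 0.241. With the replicate block, 22, 24, 26 and 8 contigs were called in the 4 comparisons, as without it, and 20 instead of 19 changed over 2-fold in H20 against H6, and of the listed genes only COP1 lost its call (adjusted p = 0.0521).

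All calls are made among contigs that the authors had kept for differing among these libraries, with at least 11 reads in each. The short contigs of KDR, IBH1 and AIF3 rest on fewer reads than those of PIF3 and PIL5, with 35 reads at the least for KDR. Each time point is 3 pools from 1 batch. The edgeR p-values set differences against the spread between pools, estimated from all 12 libraries together, and do not cover the spread between batches.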
